A study of Homo sapiens with 72 samples.

Results

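A set of 10 heat-inducible and constitutive chaperone genes of the cytosol and the mitochondrion was followed in PEO1 cells, a line established from a high-grade serous ovarian cancer. The genes were chosen by name: HSPA1A, HSPA1B, HSPA8, HSPH1, DNAJB1, HSP90AA1, HSPB1, HSPD1, HSPE1 and BAG3. All 10 were found among 54878 genes matched in the files and all 10 were among the 20110 genes with enough counts to be tested. Cells received either DMSO (Vehicle) or 8.5 µM rucaparib for 2 h or 24 h. Rucaparib blocks PARP enzymes and fluoresces by itself. RucHigh and RucLow were the 20% of treated cells with the most and the least drug fluorescence, and RucTotal was the treated culture without sorting. Poly(A) RNA was sequenced from 3 biological replicates of each of the 8 groups, with 3 libraries per replicate, which gave 72 libraries.

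Harvest differed between the sorted and unsorted groups. RucHigh and RucLow were detached with an enzyme and passed through a cell sorter, whereas Vehicle and RucTotal were scraped straight into lysis buffer. RucTotal and both sorted groups held the drug in common, so sorted against RucTotal was read as the effect of sorting, with detachment, waiting and gating in it. The sorted cells were the extremes of the population, and the cells between the gates were in neither. RucTotal against Vehicle held the harvest in common and was read as the effect of the drug, and RucHigh against RucLow held both in common. No sorted group without drug was analysed here, so sorting and an effect of the drug that appears only in sorted cells cannot be told apart. The sorting and drug comparisons at a time share the same RucTotal samples.

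Heat shock proteins bind unfolded or damaged proteins and return them to a folded state or pass them to degradation. HSP70 proteins work with J domain proteins, which load clients and start ATP hydrolysis, and with nucleotide exchange factors, which release them, while HSP90 receives clients that are close to folded, and the ring of HSP60 with its lid HSP10 does this inside mitochondria. Heat shock factor 1 (HSF1) binds repeated nGAAn units in the promoters of many of these genes and raises their transcription within minutes to hours of heat, heavy metals or proteasome block, and detaching and sorting cells is itself a handling step known to induce stress genes.

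In these data sorting did not raise any of the 10 genes by edgeR's quasi-likelihood test, which calls a gene at a Benjamini-Hochberg adjusted p under 0.05 over all genes tested. At each time 1 of 10 passed the test and was lower in sorted cells, HSPE1 at 2 h and HSP90AA1 at 24 h. Of all genes, 1.17% were called lower at 2 h and 5.15% at 24 h. With rucaparib HSPA1A was called higher at 24 h and no other of the 10 genes was, where 2.2% of all genes were. HSPA1A shares most of its sequence with HSPA1B, and the 2 genes summed missed the threshold (edgeR adjusted p = 0.102). Without the libraries whose reads came from shorter transcripts none of these 3 calls passed: the log2 difference of HSPE1 went from −0.66 to −0.16, that of HSP90AA1 from −0.52 to −0.38 and that of HSPA1A from 0.77 to 0.63. With the replicate number as a block 3 of 10 genes were called lower in sorted cells at each time. Of all genes, 8.28% were at 2 h and 13.9% at 24 h. The block also called 1 of 10 higher, DNAJB1 at 24 h (edgeR adjusted p = 0.0453), where 10.8% of all genes were. Between RucHigh and RucLow 0 of the 10 were called at either time, where 0.00497% of all genes were at 2 h and 0.109% at 24 h.

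Promoter stretches around the heat shock elements are shown because they are the letters through which HSF1 is known to reach these genes. Promoter windows ran from 250 bases before to 50 bases after each RefSeq start (GRCh38.p14), and 14 windows of 300 bases covered all 10 genes. A 3-unit element was searched as GAANNTTC followed by NNGAA, and its reverse complement, TTCNNGAA followed by NNTTC, and a 2-unit element as GAANNTTC and TTCNNGAA, each of which is its own reverse complement and lies inside the longer form. Of 35116 windows of all genes 172 (0.4898%) held the 3-unit form and 4737 (13.49%) the 2-unit form. Among the 10 genes 3 held a 3-unit form (HSPD1, HSPA8 and HSP90AA1) and 7 a 2-unit form, which adds HSPA1A, HSPA1B, HSPB1 and DNAJB1. No window of HSPE1, HSPH1 or BAG3 held either form, which says only that these letters are not in those windows. In the lines that follow, each stretch is read on the strand of its gene and capitals mark the elements.
HSPD1 (chr2:197500043-197500090, minus strand): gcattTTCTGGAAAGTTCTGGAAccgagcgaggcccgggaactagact
HSPA8, distal (chr11:123062329-123062386, minus strand): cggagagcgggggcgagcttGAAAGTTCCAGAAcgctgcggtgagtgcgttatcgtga
HSPA8, proximal (chr11:123062154-123062216, minus strand): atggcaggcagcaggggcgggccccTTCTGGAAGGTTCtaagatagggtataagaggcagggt
HSP90AA1 (chr14:102087095-102087157, minus strand): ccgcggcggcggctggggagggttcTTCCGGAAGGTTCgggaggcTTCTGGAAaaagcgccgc
HSPA1A (chr6:31815412-31815469, plus strand): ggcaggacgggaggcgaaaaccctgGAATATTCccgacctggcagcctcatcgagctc
HSPA1B (chr6:31827608-31827665, plus strand): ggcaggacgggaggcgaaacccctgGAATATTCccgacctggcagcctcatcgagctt
HSPB1 (chr7:76302466-76302523, plus strand): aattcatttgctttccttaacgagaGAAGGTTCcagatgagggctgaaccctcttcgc
DNAJB1 (chr19:14518412-14518499, minus strand): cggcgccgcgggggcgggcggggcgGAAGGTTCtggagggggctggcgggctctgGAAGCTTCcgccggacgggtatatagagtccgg
The HSPD1 stretch joins overlapping 3-unit elements that begin 245 and 240 bases before the start at position 197499840. It lies between that start and the RefSeq start of HSPE1 at position 197500379 on the other strand. Another RefSeq start of HSPD1, at position 197500274, stands between the stretch and the HSPE1 start. The annotated bounds of both genes, given below, include the stretch, so it lies between these starts and not between the genes. HSPA8 held its elements 230 and 55 bases before its start, and HSP90AA1 held its 3-unit element 88 bases before the second of its starts, with a separate 2-unit element closer to that start. The 2-unit element of HSPA1A began 106 bases and that of HSPA1B 105 bases before the start, inside stretches that are nearly the same.

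Library depth was 17391033 to 38899905 estimated reads (median 33431403.5). The mean length of the transcripts behind the reads was 2255 to 3299 bases per library, and 18 libraries were under 2800 bases: 4 of 9 in Vehicle at 2 h, 3 in RucTotal and RucHigh at 2 h, 2 in RucLow at each time, 4 in RucTotal at 24 h and 0 in Vehicle and RucHigh at 24 h. The share of reads on mitochondrially encoded genes had medians of 2.92% to 3.55% in the 4 sorted groups and of 0.506% to 1.04% in the 4 unsorted groups. Of 12 markers of serous ovarian and epithelial cells 11 had a median of at least 1 TPM (a length-corrected level that sums to the same total in each library), with SOX17 as the exception, and 10 of 13 markers of other cell types were under 1 TPM, with summed levels of 6.28 to 14.1 TPM over the 13. In RNA from whole samples, fewer cells of a type and less RNA per cell cannot be told apart. P-values rest on the 3 biological replicates, which the study places on different days, so a fit with the replicate number as a block is given where it changes a call.

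All 10 genes were well expressed. Per transcript length, mean levels over the groups were 1301 TPM for HSP90AA1, the inducible cytosolic HSP90, and 1196 TPM for HSPA8, the constitutive HSC70. The mitochondrial pair followed with 566 TPM for HSPD1 (HSP60) and 477 TPM for HSPE1 (HSP10), and HSPB1 (HSP27) had 456 TPM. The stress-inducible HSP70 genes HSPA1A and HSPA1B together reached 224 TPM, and DNAJB1 (HSP40) 142 TPM. The lowest were HSPH1 (HSP110), with 77.5 TPM, and BAG3, with 26.5 TPM. On the scale of reads per library (CPM, reads of a gene scaled to a fixed library total), across the 24 samples the highest value of a gene was 1.49 times (HSPH1) to 2.81 times (HSPB1) its lowest, and the ratio of the highest to the lowest group mean in CPM was 1.21 for BAG3 and 2.11 for HSPE1. For 9 of the 10 genes the highest group mean in CPM was at 2 h in Vehicle or RucTotal, with DNAJB1, highest in RucHigh at 2 h, as the exception. In TPM this held for 7 of the 10, with HSPB1, highest in RucHigh at 2 h, and BAG3, highest in Vehicle at 24 h, as further exceptions.

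**Figure D1:**
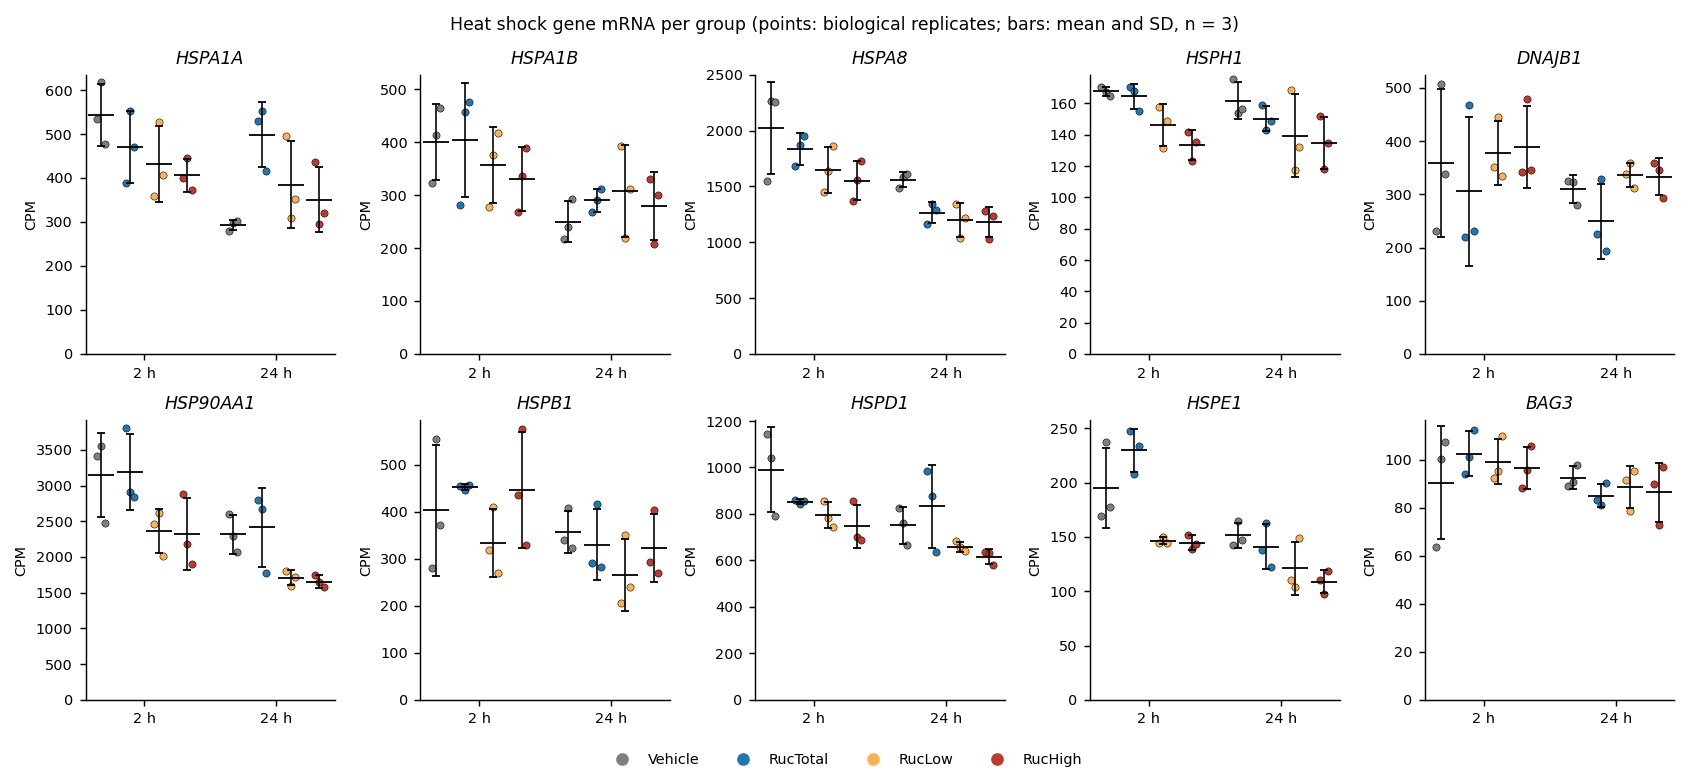
CPM (y axis, from 0) of the 10 genes in Vehicle, RucTotal, RucLow and RucHigh at 2 h and 24 h, with 1 point per biological replicate and bars for the mean and SD (n = 3). HSPE1 in RucTotal at 2 h sits at 208 to 247 CPM, above both sorted groups, and HSPA1A in RucTotal at 24 h sits at 416 to 551 CPM, above Vehicle.

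The inducible HSP70 genes HSPA1A (ENSG00000204389.9, GRCh38 chr6:31815464-31817946, plus strand) and HSPA1B (ENSG00000204388.6, chr6:31827735-31830255, plus strand) encode nearly the same protein, and 74.28% of the 31-base stretches of the HSPA1A transcript also occur in other transcripts, chiefly HSPA1B. Between 56.04% and 81.5% of their reads in a library (median 68.5%) had been assigned to copies of these genes on alternative haplotypes, which were counted in. HSPA1A at 2 h had 534, 618 and 478 CPM in replicates 1 to 3 of Vehicle and 389, 553 and 469.7 CPM in RucTotal. It had 360.1, 527 and 407 CPM in RucLow and 400.3, 445 and 372 CPM in RucHigh. At 2 h every Vehicle sample lay above every RucHigh sample, and the other pairs of groups overlapped. At 24 h HSPA1A had 281, 298 and 301 CPM in Vehicle and 529, 551 and 416 CPM in RucTotal, and these groups did not overlap, as was so in this direction for 13.4% of all genes. RucLow had 496, 308 and 352 CPM and RucHigh had 436, 296 and 320.3 CPM, which overlapped RucTotal, and 1 RucHigh sample lay within the range of Vehicle.

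Rucaparib raised HSPA1A at 24 h by 0.77 on the log2 scale (SE 0.19, edgeR adjusted p = 0.0336), a mean of 499 ± 72.9 CPM in RucTotal against 293 ± 11.1 CPM in Vehicle (SD, n = 3), higher in 3 of 3 replicates. This was 1 of the 10 genes, where 3.36% of all genes were called and 2.2% were called higher. Of 7 tested markers of other cell types 1 rose in the same comparison, ACTA2 (smooth muscle actin), with 1.04, 1.33 and 1.66 CPM in RucTotal against 0.399, 0.533 and 0.456 CPM in Vehicle (log2 difference 1.54, SE 0.27, adjusted p = 0.00556). The 13 markers summed to 6.61 to 8.09 TPM in RucTotal and 7.66 to 9.84 TPM in Vehicle at 24 h, CD3E, COL3A1 and HBB had medians of 0 TPM over all samples, and the part of such cells in the HSPA1A difference was not tested. HSPA1B, with 269, 290.2 and 311 CPM in RucTotal against 217, 239.7 and 293 CPM in Vehicle, had a difference of 0.21 (SE 0.24, adjusted p = 0.597). Summed, which does not depend on how reads were split between the copies, the pair had 798, 842 and 727 CPM in RucTotal and 498, 538 and 594 CPM in Vehicle. The summed groups did not overlap, with a difference of 0.54 (SE 0.19) that missed the threshold (adjusted p = 0.102) and passed it with the replicate block (adjusted p = 0.0480). With the block HSPA1A was 1 of 10 genes called higher (adjusted p = 0.00758), where 13.2% of all genes were. HSPA1A took 66.3%, 65.5% and 57.2% of the pair's CPM in RucTotal and 56.3%, 55.4% and 50.7% in Vehicle at 24 h.

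The direction of the HSPA1A difference at 24 h held in all alternatives, but the call did not. It was lost with an offset for effective length (0.60, adjusted p = 0.280), with limma on log2(TPM + 1) (0.45, adjusted p = 0.358), without libraries under 2800 bases (0.63, adjusted p = 0.0636), with transcript length and the block as terms (0.74, adjusted p = 0.0505), with the 6 samples compared alone (0.75, adjusted p = 0.105), with transcripts of the primary assembly alone (1.04, adjusted p = 0.143), without replicate 1 (adjusted p = 0.117) and without replicate 2 (adjusted p = 0.706). Several of these fits called few genes at all. Without replicate 1 the fit called 180 of 19857 genes and without replicate 2 it called 3 of 20226. The 6 samples alone gave 9 of 17952, the offset 114 of 20110 and limma 84 of 15481. With the block the HSPA1A call was lost without replicate 2 (edgeR adjusted p = 0.139), where 73 of 20226 genes were called. It was kept with the block without replicate 1 (0.0244) and without replicate 3 (0.0393). RucTotal at 24 h had 4 libraries under 2800 bases, with 513 to 626 CPM of HSPA1A, and 5 others with 359.7 to 504 CPM. Vehicle had none under 2800 bases and 278 to 319 CPM in its 9 libraries. The part of transcript length in the difference beyond these values was not tested. Against 2 h, HSPA1A in Vehicle was lower at 24 h by 0.89 (SE 0.19), with groups that did not overlap (9.83% of all genes in this direction) and an adjusted p of 0.113, or 0.0170 with the block, whereas RucTotal differed by 0.08 (SE 0.19) between times. The drug difference at 24 h minus that at 2 h was 0.97 (SE 0.27, adjusted p = 0.107) where 0.139% of all genes were called, and with the block 0.96 (adjusted p = 0.0200) where 9.08% were called higher.

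Sorting left the HSP70 pair without a call in the main test. HSPA1A was −0.17 (SE 0.16) at 2 h and −0.44 (SE 0.16, adjusted p = 0.0844) at 24 h in sorted cells relative to RucTotal, and the block moved the second to an adjusted p of 0.0461. The sum of HSPA1A and HSPA1B was −0.20 (SE 0.16) at 2 h and −0.26 (SE 0.16) at 24 h, and neither passed with or without the block. One RucLow library of replicate 1 at 24 h held 805 CPM of HSPA1A, where the other 8 held 241 to 419 CPM.

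HSPA8 (ENSG00000109971.13, chr11:123057489-123063230, minus strand), the HSP70 of unstressed cells, had no call in any comparison by the main test. Of 17 alternative settings, the block among them, 7 called it between times in RucTotal. The drug at 24 h and Vehicle between times had 1 such call each. Vehicle held 1552, 2259.8 and 2257 CPM at 2 h and 1489, 1584 and 1611 CPM at 24 h. RucTotal held 1680.3, 1869 and 1954 CPM at 2 h and 1165, 1342 and 1291 CPM at 24 h, so the times did not overlap, as was so in this direction for 10.5% of all genes. The RucTotal difference between times was −0.54 (SE 0.14, adjusted p = 0.0574, and 0.0115 with the block). At 24 h RucTotal lay below Vehicle in every sample, with a difference of −0.30 (SE 0.14, adjusted p = 0.198) that did not pass, where 11.2% of all genes had groups that did not overlap in that direction. Sorted cells, with 1371 to 1859.7 CPM at 2 h and 1028 to 1343 CPM at 24 h, overlapped RucTotal at both times. Pseudogenes such as HSPA8P1 share sequence with HSPA8, and 46.34% of its 31-base stretches occur elsewhere, so part of its reads may be assigned to them or from them.

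The partners of HSP70 differed among themselves. DNAJB1 (ENSG00000132002.7, chr19:14514770-14529770, minus strand), the J domain protein induced with HSP70, was the only gene of the 10 above 0 in sorted cells at 2 h, without passing the test. It had 219.6, 467 and 230.1 CPM in RucTotal, 351, 446 and 334 CPM in RucLow and 343, 478 and 345 CPM in RucHigh at 2 h. At 24 h it had 225, 328 and 194 CPM in RucTotal, 337, 358 and 312 CPM in RucLow and 359.6, 346 and 294 CPM in RucHigh. Replicate 2 of RucTotal lay within the range of the sorted samples at both times, and replicates 1 and 3 lay below it. The differences were 0.32 (SE 0.24, adjusted p = 0.524) at 2 h and 0.43 (SE 0.24, adjusted p = 0.280) at 24 h, and the block brought 24 h to an adjusted p of 0.0453 with 0.47 (SE 0.16). Vehicle held 231, 508 and 338 CPM at 2 h and 325, 324 and 280.4 CPM at 24 h, which overlapped the sorted samples and RucTotal.

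HSPH1 (ENSG00000120694.19, chr13:31134974-31162388, minus strand), the HSP110 that exchanges nucleotide on HSP70, had 170.4, 168 and 155 CPM in RucTotal at 2 h. RucLow had 158, 132 and 149 CPM and RucHigh 142, 123 and 135 CPM. Only RucLow reached into the range of RucTotal, and the difference of sorted cells was −0.24 (SE 0.10, adjusted p = 0.214, and 0.0242 with the block). BAG3 (ENSG00000151929.9, chr10:119651370-119677819, plus strand), a cochaperone that steers HSP70 clients to autophagy, had the lowest ratio of group means in CPM. These means ran from 85.0 CPM in RucTotal at 24 h to 103 CPM in RucTotal at 2 h. In TPM the lowest ratio was that of HSPD1 (1.31). The sorting differences of BAG3 were −0.07 (SE 0.13) and 0.04 (SE 0.13). One Vehicle sample at 2 h, replicate 1, stood apart at 63.6 CPM, with 100.1 and 107 CPM in the other replicates.

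HSP90AA1 (ENSG00000080824.18, chr14:102080738-102139699, minus strand) lay below RucTotal on average in sorted cells at both times and passed the test at 24 h. At 2 h it held 3802, 2913 and 2844 CPM in RucTotal, 2463, 2612 and 2012 CPM in RucLow and 2880.3, 2177 and 1899 CPM in RucHigh. At 24 h it held 2801, 2665 and 1774 CPM in RucTotal, 1805, 1595 and 1722 CPM in RucLow and 1751, 1643 and 1574 CPM in RucHigh. Replicates 1 and 2 of RucTotal at 24 h were far above all sorted samples, and replicate 3 was inside their range. The difference at 24 h was −0.52 (SE 0.16, adjusted p = 0.0415), 1 of 10 genes where 9.48% of all genes were called and 5.15% were called lower. At 2 h it was −0.45 (SE 0.16, adjusted p = 0.130), and the block gave adjusted p-values of 0.00831 at 2 h and 0.00285 at 24 h.

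The level of HSP90AA1 moved with transcript length. Over the 24 samples its log2 CPM had a Pearson r of −0.71 with the mean transcript length of the sample, with HSPD1 at −0.74, HSPA1A at −0.60, HSPE1 at −0.44 and HSPB1 at −0.42, and the other 5 genes between −0.09 and 0.33. These are descriptions over samples that share groups and days. In RucTotal at 24 h the 4 libraries under 2800 bases held 2671 to 2926 CPM of HSP90AA1 and the 5 others 1605 to 2492 CPM. Without the short libraries the sorting difference at 24 h was −0.38 (adjusted p = 0.0613), and in a fit that held transcript length and the block it was −0.34 (adjusted p = 7.56e-04). The call was also lost without replicate 1 (adjusted p = 0.257) and without replicate 2 (adjusted p = 0.533), where 411 of 19857 and 5 of 20226 genes were called. In each of these fits the difference kept its direction. Pseudogene copies such as HSP90AA2P share sequence with HSP90AA1 (37.53% of its 31-base stretches).

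**Figure D2:**
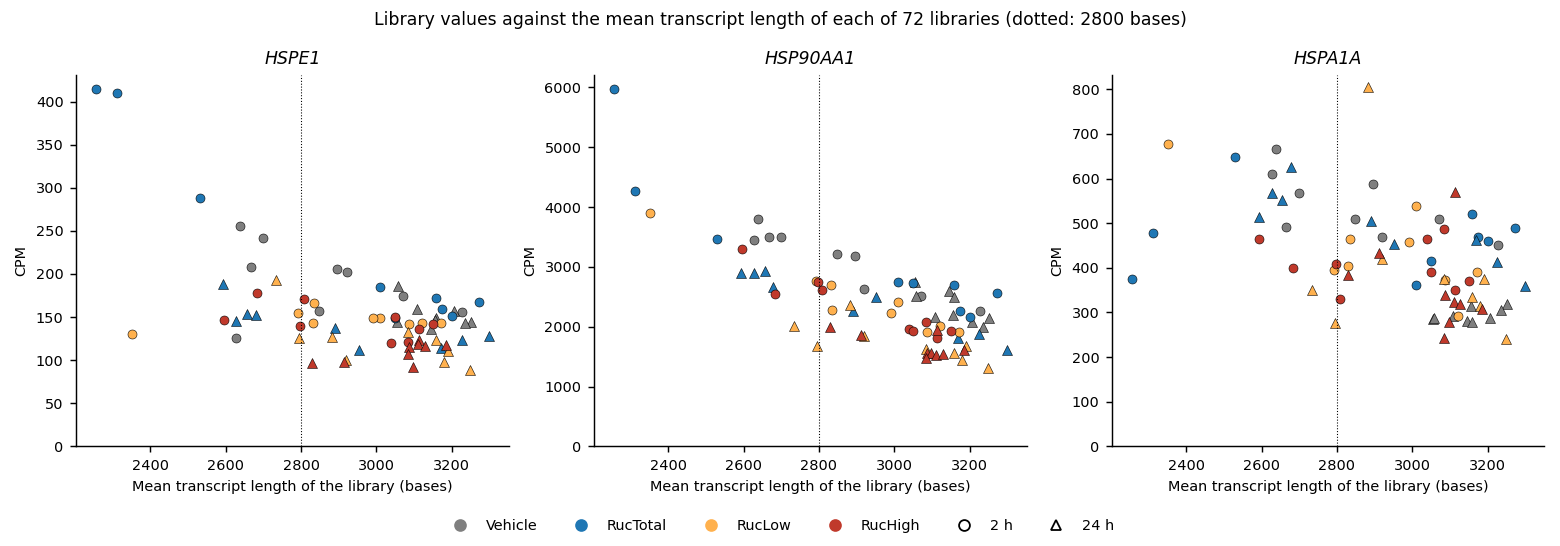
CPM (y axis, from 0) of HSPE1, HSP90AA1 and HSPA1A in each of the 72 libraries against the library's mean transcript length in bases (x axis), with circles for 2 h and triangles for 24 h and the dotted line at 2800 bases. The 3 RucTotal libraries at 2 h under 2800 bases hold the 3 highest HSPE1 values, 289 to 415 CPM, and HSP90AA1 declines from left to right.

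The mitochondrial chaperonin was described by HSPD1 (ENSG00000144381.16, chr2:197486581-197516737, minus strand) and HSPE1 (ENSG00000115541.10, chr2:197499994-197503457, plus strand), whose products form the folding chamber and its lid. HSPE1 at 2 h had 169.6, 237 and 178 CPM in Vehicle and 247, 208 and 234 CPM in RucTotal. It had 145, 150.1 and 144 CPM in RucLow and 152, 139 and 143 CPM in RucHigh. Every sorted sample lay below every RucTotal sample, and Vehicle overlapped RucTotal and lay above the sorted samples. The difference of sorted cells from RucTotal was −0.66 (SE 0.12, edgeR adjusted p = 0.00984), or −36.7%, as 1 of 10 genes where 2.41% of all genes were called and 1.17% were called lower. Groups that did not overlap in the lower direction were found for 7.35% of all genes.

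This HSPE1 difference rested on 3 libraries of RucTotal at 2 h. They were library 1 of replicate 1, library 3 of replicate 2 and library 1 of replicate 3, with mean transcript lengths of 2255, 2530 and 2313 bases. They held 289 to 415 CPM, against 148 to 185 CPM in the other 6 libraries of RucTotal and 119.9 to 178 CPM in the 18 sorted libraries. Without libraries under 2800 bases, which leaves every group with 3 replicates, the difference was −0.16 (SE 0.11, adjusted p = 0.551). Without replicate 1, 2 or 3 it was −0.62, −0.70 and −0.60, with edgeR adjusted p-values of 0.0949, 0.215 and 0.162. Of all genes, 379 of 19857, 2 of 20226 and 15 of 20596 were called in these 3 fits. With the block these 3 fits gave adjusted p-values of 0.0484, 0.0310 and 0.0496. With mean transcript length as a covariate it was −0.63 (adjusted p = 2.54e-04 with the block). The readthrough gene HSPE1-MOB4 and HSPE1 pseudogenes share 35.37% of the 31-base stretches of HSPE1.

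At 24 h HSPE1 had 138, 163 and 122 CPM in RucTotal, 110.3, 104 and 149 CPM in RucLow and 110.4, 97.6 and 119 CPM in RucHigh. The groups overlapped through replicate 3 of RucLow, and the difference was −0.30 (SE 0.12, adjusted p = 0.124). RucTotal itself fell by 0.71 between 2 h and 24 h (SE 0.14, adjusted p = 0.0154), 1 of 10 genes where 2.01% of all genes were called and 0.781% were called lower. Without the short libraries this time difference was −0.41 (adjusted p = 0.0814).

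HSPD1 had 860.0, 841 and 856 CPM in RucTotal at 2 h, 855, 782 and 746 CPM in RucLow and 855, 699 and 687 CPM in RucHigh. At 24 h it had 986, 876 and 637 CPM in RucTotal, 682, 656 and 639 CPM in RucLow and 636, 634 and 581 CPM in RucHigh. Replicate 3 of RucTotal at 24 h lay within the sorted samples, as it did for HSP90AA1. The sorting differences were −0.15 (SE 0.12, adjusted p = 0.585) and −0.39 (SE 0.12, adjusted p = 0.0530), the second with an adjusted p of 0.00530 under the block. Over 24 samples HSPD1 and HSPE1 correlated at 0.67, less than HSPD1 with HSP90AA1 (0.91) or HSPE1 with HSP90AA1 (0.84).

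HSPB1 (ENSG00000106211.8, chr7:76302544-76304295, plus strand), a small heat shock protein that holds unfolded clients without ATP, was the gene with the largest difference between the drug gates. RucLow held 319, 410.3 and 268 CPM at 2 h and RucHigh 435, 575 and 329 CPM. At 24 h RucLow held 205, 351 and 239 CPM and RucHigh 293, 404 and 269 CPM. RucHigh was above RucLow in 3 of 3 replicates at both times, while the groups overlapped. The differences of 0.42 (SE 0.26) at 2 h and 0.28 (SE 0.26) at 24 h did not pass (edgeR adjusted p = 1 at each time, and 0.474 and 0.655 with the block).

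Across the 10 genes RucHigh and RucLow were close. None was called by edgeR at 2 h or 24 h, with 0 at an unadjusted p under 0.05 at each time, 1 (HSPB1 at 2 h) unadjusted with the block, and 0 by DESeq2 or limma. Of all genes tested, the main test called 0.00497% at 2 h and 0.109% at 24 h. With the block 1252 of 20110 genes had an unadjusted p under 0.05 at 2 h. Differences ran from −0.13 to 0.42 at 2 h and from −0.15 to 0.28 at 24 h. The 95% intervals of the 10 genes together spanned −0.60 to 0.96 at 2 h and −0.63 to 0.82 at 24 h, so differences as large as those bounds were not excluded for the least precise of the 10. HSPD1 at 24 h was the one gene whose groups did not overlap, lower in RucHigh by 6.45%, where 3.53% of all genes had groups that did not overlap in that direction.

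The drug at 2 h gave no call among the 10 genes. By edgeR 0 passed, with 0 at an unadjusted p under 0.05 with and without the block, 0 by DESeq2 and 0 by limma on log2(TPM + 1), where 1 (HSPD1) had an unadjusted p under 0.05. Of all genes tested, the main test called 0.0249%. By limma 604 of 15481 genes had an unadjusted p under 0.05. Differences ran from −0.23 (DNAJB1) to 0.24 (HSPE1), 5 of 10 were above 0, and the median was −0.01 where that of all genes was 0.01. At 24 h 4 of 10 were above 0 with a median of −0.10, where that of all genes was 0.03.

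**Figure D3:**
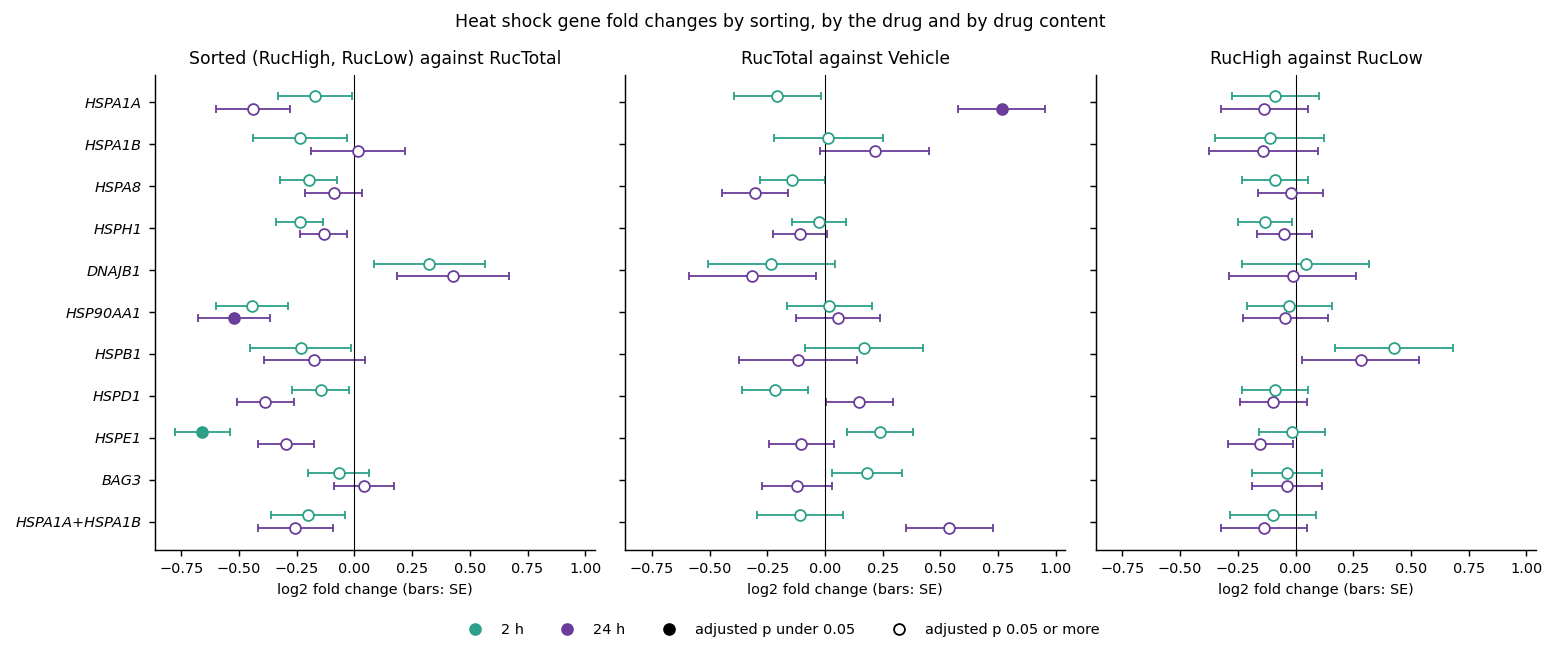
Log2 fold changes (x axis) of the 10 genes and of HSPA1A and HSPA1B summed (y axis), with bars for the SE, for sorted cells against RucTotal, RucTotal against Vehicle and RucHigh against RucLow at 2 h and 24 h. Filled points passed an adjusted p of 0.05: HSPE1 (−0.66) and HSP90AA1 (−0.52) for sorting and HSPA1A (0.77) for the drug.

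Most of the 10 genes lay below 0 in sorted cells. At 2 h 9 of 10 genes were below 0, with a median of −0.21 where that of all genes was −0.01, and at 24 h 7 of 10 were below 0, with a median of −0.15 where that of all genes was 0.01. With the replicate block 3 were called lower at 2 h (HSPE1, HSP90AA1 and HSPH1), where 8.28% of all genes were. At 24 h 3 were called lower (HSP90AA1, HSPD1 and HSPA1A) and 1 higher (DNAJB1), where 13.9% and 10.8% of all genes were. The sorting difference at 24 h minus that at 2 h was called for 0 of 10 genes and for 0% of all genes by edgeR. At an unadjusted p under 0.05 there were 0 of 10 by edgeR or DESeq2. By limma there was 1 (HSPD1), where 702 of 15481 genes were. The mitochondrial read share and the short libraries also differed between sorted and unsorted samples, as given above, and beyond the fits named their part in these differences was not tested.

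Immediate-early genes, which respond to stimulation within minutes, moved otherwise in the same samples. Of 17 such genes 9 rose in sorted cells at 2 h and 10 at 24 h and none fell, where 1.24% and 4.34% of all genes were called higher. Their medians were 1.18 and 1.02, against −0.01 and 0.01 for all genes. EGR1 rose by 5.18 (SE 0.27, adjusted p = 1.03e-09) at 2 h and by 4.85 at 24 h, and FOS, which forms the AP-1 factor with JUN, by 4.29 (SE 0.37, adjusted p = 4.60e-06) and 3.96. In these same sorted samples the summed HSP70 pair differed from RucTotal by −0.20 and −0.26, as given above.

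The list of heat shock factors and related genes held 5 genes, HSF1, HSF2, HSF4, HSBP1 and IER5, and 0 passed the main test. With the block 2 of the 5 were called higher and 1 lower in sorted cells at 2 h, where 6.62% and 8.28% of all genes were. At 24 h the block called 1 of the 5 higher in sorted cells, where 10.8% of all genes were. It called 2 of the 5 higher with the drug at 24 h, where 13.2% of all genes were. HSF1 had differences of 0.05 (SE 0.09) and −0.19 (SE 0.09) for sorting at 2 h and 24 h and did not pass. For the drug at 24 h it had 165, 157 and 130.01 CPM in RucTotal and 120.2, 116 and 116 CPM in Vehicle. These groups did not overlap, as for 13.4% of all genes. The difference was 0.36 (SE 0.10, adjusted p = 0.0575, and 0.0132 with the block, where 13.2% of all genes were called higher). HSF2, a related factor, lay between −0.17 and 0.17 in the sorting, drug and gate comparisons and passed in none.

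Other chaperone lists differed among themselves in sorted cells. Of 8 further lists of cytosolic and mitochondrial chaperones and their factors, 7 had a median below 0 at 2 h and 5 at 24 h. The heat shock factors had medians of 0.11 and 0.17, and at 24 h the other cytosolic HSP70 and HSP110 genes (0.17) and the other small heat shock proteins (0.04) were also above 0. Of 75 tested genes in these lists, 0 rose and 3 fell at 2 h, and 0 rose and 13 fell at 24 h, where 1.17% and 5.15% of all genes fell. Their medians were −0.16 and −0.12, against −0.01 and 0.01 for all genes. With the block 19 fell and 2 rose at 2 h, where 8.28% and 6.62% of all genes did. At 24 h 29 fell and 4 rose with the block, where 13.9% and 10.8% of all genes did. The CCT chaperonin, which folds actin and tubulin, was below 0 for 8 of 8 subunits at both times. CCT5 (−0.37, SE 0.08, adjusted p = 0.0201) and CCT3 (−0.33) fell at 2 h, and 5 subunits fell at 24 h, led by CCT7 (−0.60, SE 0.13, adjusted p = 0.0104), CCT8 (−0.46) and CCT2 (−0.33). HSP90 and its cochaperones were below 0 for 14 of 14 genes at 2 h, where AHSA1 (−0.34, adjusted p = 0.0479), which speeds the ATPase of HSP90, fell. At 24 h 3 of the 14 fell, namely TTC4 (−0.42), HSP90AB1 (−0.38), the constitutive HSP90, and AHSA1 (−0.37).

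Among 14 other mitochondrial chaperones and proteases 0 rose or fell at 2 h and 2 fell at 24 h, LONP1 (−0.48, SE 0.13) and the mitochondrial HSP90 TRAP1 (−0.35, SE 0.08). HSP40 proteins gave 1 fall at 24 h of 13 tested (DNAJC9, −0.40) and HSP70 cochaperones 1 of 8 (HSPBP1, −0.60). The list of small heat shock proteins, taken by gene name, gave 1 of 5 (HSPB11, −0.52) and endoplasmic reticulum chaperones 1 of 13 (PDIA6, −0.42). Of all genes tested 5.15% were called lower at 24 h, and single falls in lists this short are not read as a result about a list. The 8 other cytosolic HSP70 and HSP110 genes gave no call at either time. With the drug at 24 h 2 of the 75 genes rose, LONP1 (0.61, SE 0.16, adjusted p = 0.0381) and HSPB11 (0.65, SE 0.17, adjusted p = 0.0383), and none fell, a share close to the 2.2% of all genes called higher. The block gave 18 higher and 7 lower, where 13.2% and 10.8% of all genes were. LONP1 and HSPB11 were thus higher in RucTotal than in both Vehicle and sorted cells at 24 h, in comparisons that share the RucTotal samples.

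**Figure D4:**
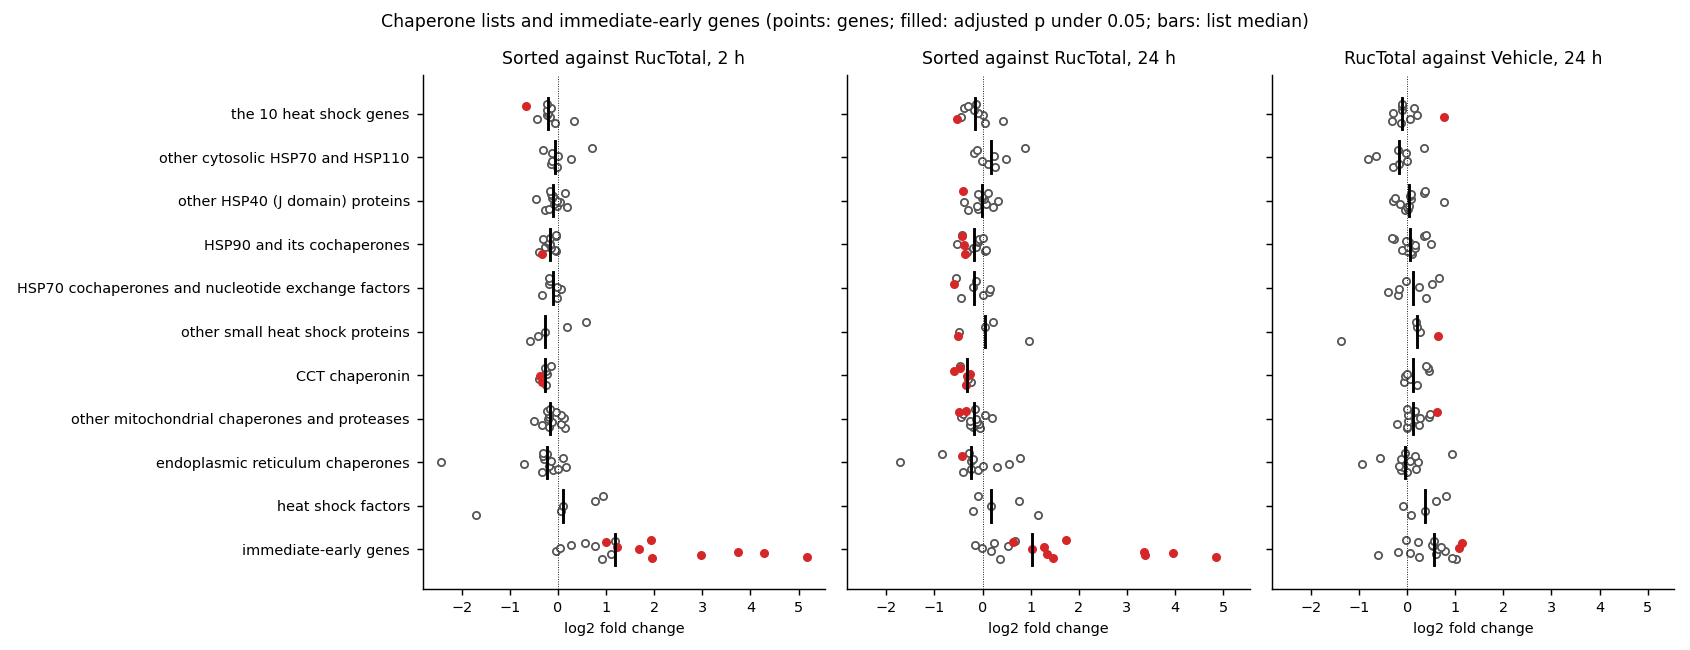
Log2 fold changes (x axis) of single genes (points) in the 10 heat shock genes, 8 further chaperone lists, the heat shock factors and immediate-early genes (y axis), for sorted cells against RucTotal at 2 h and 24 h and RucTotal against Vehicle at 24 h, with filled points past an adjusted p of 0.05 and bars at list medians. Immediate-early genes reach 5.18 in sorted cells, and the 8 CCT subunits are all below 0 in both sorting panels.

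Levels at 24 h were also set beside those at 2 h, in comparisons added after the data were seen. In Vehicle 9 of 10 genes were lower at 24 h than at 2 h, with a median of −0.37 where that of all genes was −0.04. By edgeR 0 passed, where 0.0249% of all genes were called. At an unadjusted edgeR p under 0.05 there were 6 of the 10, where 3506 of 20110 genes were. DESeq2 called 1 of the 10, where it called 227 of 20085 genes. With the block HSPA1A, HSP90AA1 and HSPD1 were called lower, where 4.82% of all genes were. In RucTotal 9 of 10 were lower, with a median of −0.35 where that of all genes was −0.00307, and 1 of 10 passed (HSPE1), where 2.01% of all genes did. With the block HSPA8, HSP90AA1, HSPB1 and HSPE1 were called lower, where 6.42% of all genes were. HSPA1A was the exception in RucTotal, at 0.08. Vehicle at 2 h had 4 libraries under 2800 bases and Vehicle at 24 h had none. In the fit that held transcript length and the block 0 of 10 genes were called in Vehicle, where 5 of 20110 genes were. The block alone called 1897 of 20110 genes. At a share that small, 0 of 10 says little about these genes.

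The 10 genes moved together in part. Over the 24 samples 38 of 45 pairs had a Pearson r of log2 CPM above 0 and 17 were above 0.5, with a median of 0.41 and a range of −0.26 (HSPH1 with DNAJB1) to 0.91 (HSP90AA1 with HSPD1). DNAJB1 stood apart, with a highest r of 0.41, with HSPB1. These samples share groups, days and transcript length. Of 10948 genes of at least 5 CPM outside the list, those most like the summed HSP70 pair were TNFRSF12A (r = 0.77), GATC (0.73), CD3EAP (0.71), LIPG (0.71) and EHD1 (0.70). Those most like HSPD1 were EBNA1BP2 (0.96), SRSF3 (0.95), CLPTM1L (0.95), UTP18 (0.95) and HSP90AB1 (0.95).

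**Figure D5:**
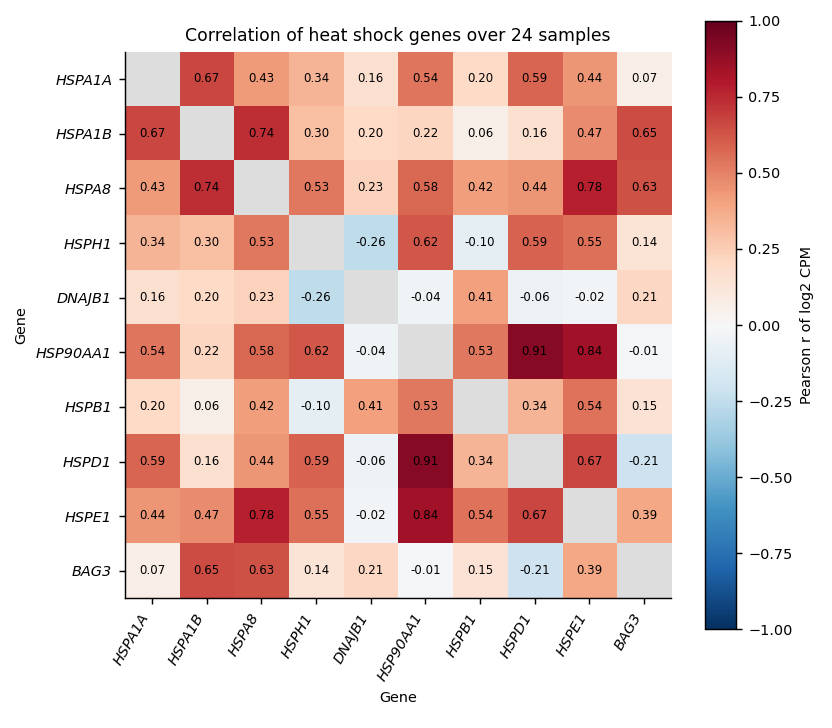
Pearson r of log2 CPM over the 24 samples for each pair of the 10 genes (both axes list the genes), from −1 in blue to 1 in red. HSP90AA1, HSPD1 and HSPE1 form the block of highest values (0.67 to 0.91), and the highest value of DNAJB1 is 0.41.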

How the data were processed

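RNA of 72 PEO1 libraries was analysed as 8 groups, taken from the sample labels. The authors deposited 1 table per library with estimated counts, TPM and an effective length per transcript, as Salmon writes it. Beside Salmon, whose version is not given in the sources used here, GRCh38, DESeq2 1.44.0 and cutadapt 4.7 stand in the submitters' processing notes. Effective length, another deposited value (in bases), entered only an alternative.

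Of 257369 transcripts 194437 were matched to genes by GENCODE release 29 and 11676, among them haplotype copies of HSPA1A and HSPA1B, by its table of symbols. The other 51256 took 7.10% to 8.95% of a library's reads and were left out. Estimated counts were summed to genes and over the 3 libraries of a replicate and rounded, which gave 24 samples. No file was identical to another. CPM are matched reads scaled to a fixed library total after TMM.

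After filterByExpr and TMM scaling, edgeR 4.0.16 (R 4.3.3) ran its quasi-likelihood test on the 24 samples in 1 fit, with Benjamini-Hochberg adjustment over 20110 genes and a threshold of 0.05. The SE is the size of the log2 fold change divided by the square root of F. The named genes are the 10 heat shock genes, HSF1 and HSF2 and, of each further list, up to 3 with the largest rise and fall past the threshold and changed the same way in 3 of 3 replicates, and the 5 genes most like HSPD1 and the HSP70 pair. The genes and lists were chosen with earlier results of these data known.

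Replicate numbers pair the samples, since the study's reporting summary says that sorting was repeated on other days for each biological replicate. Deviations from group means correlated at a median of 0.478 (lowest −0.215) between samples of the same number and of −0.235 between samples of different numbers, over 13648 genes. Alternatives were DESeq2 1.42.0 and its size factors, other low-count filters, the replicate block, 9 libraries per group, an effective length offset, a fit of the compared groups alone, limma 3.58.1 on log2(TPM + 1) with genes of at least 0.5 TPM, 1 sorted gate at a time and each replicate left out. Fits without libraries under 2800 bases, with transcript length as a covariate and of primary-assembly transcripts alone were chosen after seeing the data, as were the comparisons between times.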

Additional observations from a re-analysis of the deposited data

Results flagged for a closer look

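Within each group of 9 libraries, the highest and the lowest value of each gene were compared with the rest by Dixon's ratio at its 95% limit, and 10 of 80 gene and group combinations were beyond it. Chance flags about 1 in 20 groups, and libraries of 1 replicate are not independent. Of the 10, 5 were in replicate 1 of the sorted groups at 24 h. HSPA1A reached 805 CPM in a RucLow library, where the other 8 held 241 to 419 CPM, and HSPA1B reached 559 CPM in RucLow, where the others held 200.003 to 339 CPM. In RucHigh at 24 h, replicate 1 also held the highest HSPA1B (454 CPM, others 204 to 302 CPM), HSPA8 (1594 CPM, others 965 to 1282 CPM) and HSPH1 (196 CPM, others 113 to 138 CPM). In RucLow at 2 h a library of replicate 2 held the lowest HSPH1 (81.1 CPM, others 135 to 164 CPM) and the highest HSP90AA1 (3901 CPM, others 1904 to 2759 CPM). HSPB1 in RucTotal at 24 h had 515 CPM in a library of replicate 2, where the others held 255 to 354 CPM. HSPE1 had 186 CPM in a Vehicle library of replicate 2 at 24 h, where the others held 136 to 159 CPM, and 193 CPM in a RucLow library of replicate 3 at 24 h, where the others held 88.7 to 133 CPM.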

How the results depend on the processing

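The direction was kept in all alternatives that called a gene in either fit; it changed in 119 of 1856 gene and setting combinations, in which neither fit passed the threshold, while 60 gained and 36 lost a call. Of the 10 genes, sorting at 2 h called 1 (0 with an effective length offset, limma on log2(TPM + 1) or without libraries under 2800 bases; 3 with the replicate block, 9 libraries per group or transcript length as a covariate with the block; 0 to 1 leaving out 1 replicate). Sorting at 24 h called 1 (0 with no low-count filter, a minimum of 1 CPM in 3 samples, only the groups compared, limma, 1 gate alone or without short libraries; 2 with DESeq2; 3 with the length covariate and block; 4 with the block or 9 libraries; 0 to 3 leaving out 1 replicate). The drug at 24 h called 1 (0 with only the groups compared, the offset, limma, without short libraries or with the length covariate and block; 2 with 9 libraries; 0 to 1 leaving out 1 replicate), and its change between times 0 (1 with the block or DESeq2; 2 with 9 libraries; 0 to 2 leaving out 1 replicate). Between times Vehicle gave 0 (1 with no filter or DESeq2; 3 with the block; 5 with 9 libraries; 0 to 3 leaving out 1 replicate) and RucTotal 1 (0 with only the groups compared, the offset or limma; 2 with the 1 CPM minimum or DESeq2; 4 with the block or the length covariate and block; 6 with 9 libraries; 0 to 2 leaving out 1 replicate). The replicate block and the other alternatives changed no call among the 10 genes for the drug at 2 h, for RucHigh against RucLow or for the change of sorting between times. The fits also differed in how many of all genes they called. For sorting at 2 h the main fit called 485 of 20110, the offset 88, limma 108 of 15481 and the block 2997. Leaving out 1 replicate gave 2 to 1542. For sorting at 24 h the main fit called 1907, only the groups compared 230 of 18906 and DESeq2 3035 of 20085. The length covariate with the block called 3934 and the block 4970. Leaving out 1 replicate gave 5 to 4756. For the drug at 24 h the main fit called 675 and the offset 114. Limma called 84 of 15481 and only the groups compared 9 of 17952. Leaving out 1 replicate gave 3 to 4664. For the drug's change between times the main fit called 28, DESeq2 870 of 20085 and the block 3636. Between times the main fit called 5 in Vehicle and 404 in RucTotal, and the block 1897 and 2479. The fit of 9 libraries per group counts libraries of 1 replicate as separate samples, so its calls do not rest on the 3 biological replicates. Of 17043 genes it called 3434 for sorting at 2 h and 5134 at 24 h. It called 5138 for the drug at 24 h and 4393 for its change between times. Between times it called 3362 in Vehicle and 3081 in RucTotal. Limits are the 3 replicates per group, the transcript length that differed between libraries, the shared sequence of HSPA1A with HSPA1B, and harvest and sorting that cannot be told apart.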
